A study of Rattus norvegicus with 32 samples.

Results

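Blockade of the AT2 receptor was examined in C6 rat glioma cells exposed to angiotensin II (Ang II) for 6 h. The comparison, Ang II+PD123319 x Ang II, used 8 of the 32 arrays of the series, chosen by their titles: 4 arrays of cells pre-treated for 30 min with 10 µM PD123319, an AT2 antagonist, and then given 100 nM Ang II, and 4 arrays of cells given 100 nM Ang II alone. Both groups therefore carried Ang II, and no group received PD123319 without it. The other arrays of 6 h were untreated Control cells and cells pre-treated with 10 µM Losartan, an AT1 antagonist, before Ang II (4 arrays each), and the same 4 groups were measured at 3 h. C6 is a single established rat line, grown here to confluence in medium with serum, and only mRNA was measured. Each array of a group shared its slide with the same-numbered array of the other groups of that time, so differences were taken within replicate number. The labels do not say whether replicates were separate cultures, and p-values then measure only the spread between these samples.

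Ang II is the peptide end product of the renin-angiotensin system and acts on a pair of G protein-coupled receptors. AT1 couples mainly to Gq and phospholipase C, raises calcium and protein kinase C activity, and reaches the ERK cascade partly through shedding of heparin-binding EGF-like growth factor and the EGF receptor. AT2 is known for phosphatase and nitric oxide-cyclic GMP signalling, often described as opposing AT1 growth signals. With AT2 occupied by PD123319, Ang II is left mainly with AT1.

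The receptors themselves could not be followed on these arrays. The probes for Agtr1a, Agtr1b (the rodent AT1 receptors), Agtr2 (AT2) and Mas1 (the receptor of angiotensin 1-7) were not well above background on any of the 16 arrays of 6 h. Of the renin-angiotensin list, 10 genes were tested and 0 were past both limits defined below. Their median log2 fold change was 0.09, beside -0.004 over all genes. Agtrap, which binds AT1 and promotes its internalization, was 0.15 ± 0.07 (SE) higher on the log2 scale (adjusted p = 0.763), short of the fold limit. Lnpep, the insulin-regulated aminopeptidase also known as the angiotensin IV receptor, gave 0.21, and the prorenin receptor Atp6ap2 gave -0.09, neither past the limits.

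Between 66.0% and 79.8% of spots were well above background on the 8 arrays. On the fourth slide the Ang II+PD123319 array was dimmer than its Ang II partner, with a 75th percentile of signal of 734 against 1135. Both were brighter than the arrays of the other slides, at 483 to 641, and the fourth slide was scanned on a different date. On this Ang II+PD123319 array 888 spots carried an outlier flag, against 334 to 439 on the other 7 arrays. Ang II arrays lay at slide position 2 and Ang II+PD123319 arrays at position 4 on every slide, so position and treatment cannot be told apart. Of 14 astrocyte and glioma markers, 9 were above background on all 16 arrays of 6 h, among them Nes, Vim, Cd44, Sox2 and S100b, whereas Gfap was above background on 2 arrays and Slc1a2, Slc1a3 and Fabp7 on none. The astrocyte label is thus carried by part of its markers. Markers of other cells were also read, and the share above background did not single out the astrocyte set. Of 10 oligodendrocyte markers 7 were above background on all 16 arrays, as were 7 of 10 fibroblast and smooth muscle markers. The same held for 5 of 11 neuronal and 3 of 7 endothelial markers. The brightest oligodendrocyte marker had a mean log2 signal of 11.89, beside 11.46 for the brightest astrocyte marker. Of 9 microglial markers, 7 were above background on all 16 arrays and Ptprc on none. Aif1 and Tyrobp, both dim, were higher with PD123319 by 0.39 and 0.41 on the log2 scale, while the summed linear signal of the tested microglial markers ran from 448 to 643 in Ang II and from 450 to 687 in Ang II+PD123319. Among the astrocyte markers S100b was higher (0.28, adjusted p = 0.64) and Sox9 lower (-0.49). Their part in the results was not tested.

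A gene was called differentially expressed (DE) here when its unadjusted p was under 0.05 and its fold change was above 1.2 or below 0.8. Among 16444 genes tested, 423 (2.57%) were higher and 201 (1.22%) were lower in Ang II+PD123319. By limma, 0 genes had an adjusted p under 0.05, 1048 had an unadjusted p under 0.05 against 822 that chance alone would give, and the lowest adjusted p was 0.383. The methods' t-test, paired or unpaired, also gave 0 genes after adjustment. The differences were small: the median fold change was 1.3 among the genes called higher and 0.711 among those called lower, 54 genes exceeded 1.5-fold upwards and 70 downwards. All 4 pairs went the same way for 303 of the 423 and for 157 of the 201. For 99 genes (0.602% of those tested) the 4 values of one group did not overlap those of the other, 42 of them called. The balance of directions depended on scaling: 67.8% of the calls were higher, but 90.5% with 75th-percentile scaling, 86.0% after normexp background correction and 58.0% with quantile normalization (354 higher and 256 lower). With the pairing by slide ignored the calls were 57 higher and 56 lower.

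**Figure D1:**
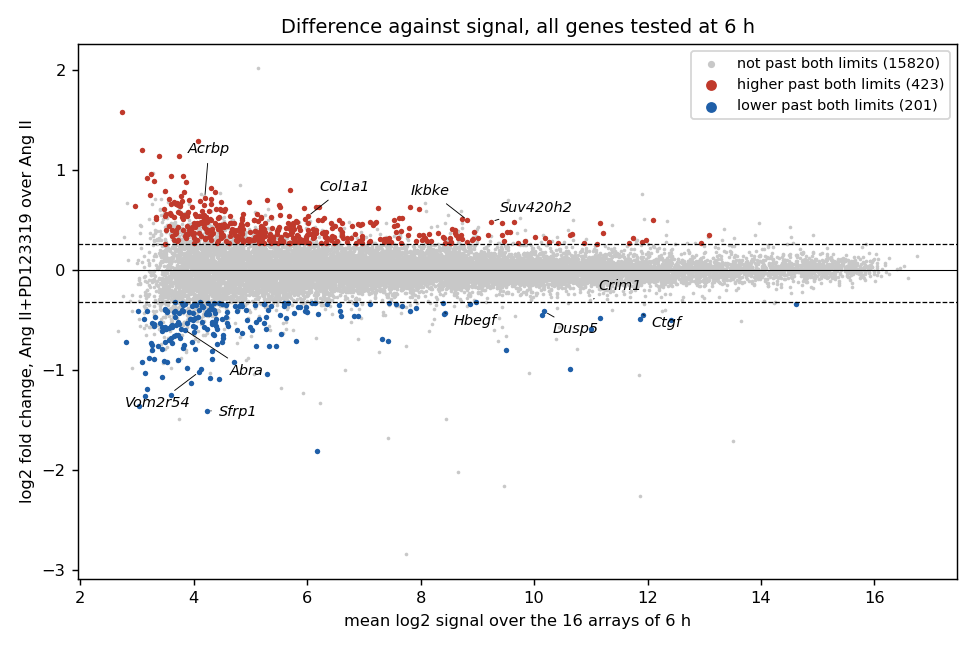
Log2 fold change of Ang II+PD123319 over Ang II (y) against the mean log2 signal over the 16 arrays of 6 h (x), 1 point per gene, with the fold limits of 1.2 and 0.8 as dashed lines. The 423 genes called higher (red) and 201 called lower (blue) crowd at low signal, and few bright genes lie beyond the limits.

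The calls were concentrated in dim genes. With the genes split by signal into 4 bins of about equal size, 240 genes were higher and 156 lower in the dimmest bin, and 16 were higher and 9 lower in the brightest. The median log2 signal was 5.23 for genes called higher and 4.30 for genes called lower, beside 7.79 for all genes tested. For this reason the brighter genes are described first, and then the largest fold changes at any signal.

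Among bright genes those with lower signal under PD123319 included secreted growth regulators. Connective tissue growth factor (Ctgf, now Ccn2), a matricellular protein and target of YAP and TEAD, read 12.90, 11.57, 12.25 and 11.45 on the log2 scale in Ang II replicates 1 to 4 and 12.64, 11.01, 11.78 and 10.96 in Ang II+PD123319. Every pair was lower, although the slides differed by more than the treatment and the groups overlapped. The fitted log2 fold change was -0.45 ± 0.13 (SE; fold 0.734, adjusted p = 0.527). Heparin-binding EGF-like growth factor (Hbegf), an EGF receptor ligand, read 9.03, 8.45, 9.39 and 7.78 in Ang II and 8.69, 8.04, 9.16 and 7.05 in Ang II+PD123319. It was lower in 4 of 4 pairs, by 0.43 ± 0.14 on the log2 scale (adjusted p = 0.617), with the widest gap on the fourth slide; without replicate 4 the difference was -0.33 and no longer past the p limit. Crim1, a transmembrane protein that binds BMPs, was lower in 4 of 4 pairs, but its fold of 0.810 stopped just short of the 0.8 limit (log2 fold change -0.30 ± 0.09, adjusted p = 0.527). Among neurotrophic factors and their receptors, Bdnf gave -0.23, Gdnf -0.19 and the BDNF receptor Ntrk2 -0.36, all with an unadjusted p over 0.1.

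The other named genes of this kind act in ERK signalling and in the matrix. Dusp5, the nuclear phosphatase of ERK1 and ERK2, read 9.32, 11.19, 10.19 and 10.49 in Ang II and 9.41, 10.60, 9.86 and 9.67 in Ang II+PD123319. It was lower in 3 of 4 pairs, with replicate 1 a little higher (-0.41 ± 0.13, adjusted p = 0.56), and without replicate 4 its difference was -0.28, short of the fold limit. Thrombospondin 1 (Thbs1), a matricellular protein and YAP target, was dimmer, at 5.28, 4.15, 5.46 and 4.49 in Ang II against 4.80, 3.62, 4.76 and 4.51 in Ang II+PD123319. It was lower in 3 of 4 pairs and level on the fourth slide (-0.42 ± 0.11, adjusted p = 0.49), and after normexp correction the difference shrank to -0.11. Of the genes above the median signal but outside the naming rule, Zmiz1, a coactivator of the androgen receptor and SMAD proteins, was also called lower (-0.41, adjusted p = 0.613); it was chosen after its values were seen.

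The 60-base array probes lie, in coordinates of rn4 as given by the scanner files, at chr1:21327574-21327633 for Ctgf, chr18:29143627-29143686 for Hbegf and chr1:259767436-259767495 for Dusp5. No gene annotation of rn4 was used, so exon or UTR is not stated. The promoters of the YAP and TEAD targets past both limits, Ctgf and Thbs1, are shown because the TEAD motif GGAATG can be read in them. These are the 250 bases before the annotated start in RefSeq for GRCr8, 5′ to 3′ on the gene's strand, with GGAATG in capitals.
Ctgf, chr1:22624615-22624864, minus strand: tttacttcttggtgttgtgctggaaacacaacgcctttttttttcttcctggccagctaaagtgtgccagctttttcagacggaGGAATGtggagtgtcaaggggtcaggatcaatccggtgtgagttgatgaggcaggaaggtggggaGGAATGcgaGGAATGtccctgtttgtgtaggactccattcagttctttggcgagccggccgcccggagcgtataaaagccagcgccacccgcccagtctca
Thbs1, chr3:125510000-125510249, plus strand: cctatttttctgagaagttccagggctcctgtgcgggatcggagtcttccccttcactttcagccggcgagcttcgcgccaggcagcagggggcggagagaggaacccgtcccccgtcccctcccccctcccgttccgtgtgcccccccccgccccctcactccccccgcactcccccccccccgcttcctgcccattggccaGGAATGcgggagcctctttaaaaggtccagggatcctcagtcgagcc

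The Ctgf promoter held 3 matches and the Thbs1 promoter 1. Over windows of 300 bases (250 before and 50 after the start), on either strand, GGAATG was found in 7 of the 41 promoters of named DE genes that had an entry (17.1%) and in 14.2% of all 33469 promoters. The AP-1 motif TGACTCA was found in 2 of the 41 (Mmp10 and Slc16a3) against 4.63% of all, and the cyclic AMP response element TGACGTCA in 1 of the 41 (Actr3b) against 1.83%. The shares in the named genes were near those of all promoters, and a match describes letters, not binding.

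**Figure D2:**
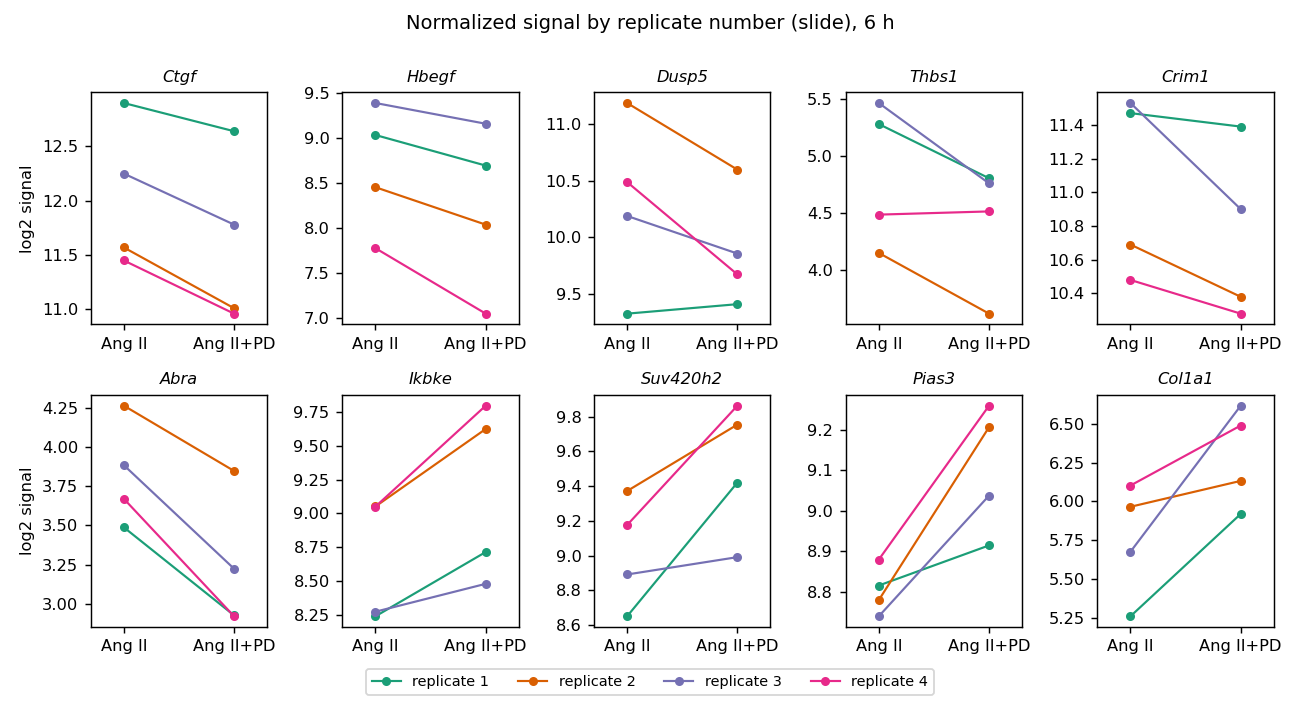
Normalized log2 signal (y) of 10 genes in Ang II and Ang II+PD123319 (x), with 1 line per replicate number, that is, per slide. The lines of Ctgf, Hbegf, Crim1 and Abra all slope down and those of Ikbke, Suv420h2, Pias3 and Col1a1 all slope up, while Dusp5 in replicate 1 and Thbs1 in replicate 4 go slightly the other way.

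The bright genes with higher signal under PD123319 included regulators of chromatin and signalling. Suv420h2 (now Kmt5c), a methyltransferase of histone H4 lysine 20, read 8.65, 9.37, 8.89 and 9.18 in Ang II and 9.42, 9.76, 8.99 and 9.86 in Ang II+PD123319. It was higher in 4 of 4 pairs (log2 fold change 0.49 ± 0.11, fold 1.40, adjusted p = 0.419), by little on the third slide. Ikbke, a kinase of the innate interferon and NF-kB pathways, read 8.24, 9.05, 8.27 and 9.05 in Ang II and 8.71, 9.63, 8.48 and 9.80 in Ang II+PD123319 (0.50 ± 0.13, adjusted p = 0.49). Pias3, a SUMO ligase that inhibits STAT3, read 8.82, 8.78, 8.74 and 8.88 in Ang II and 8.91, 9.21, 9.04 and 9.26 in Ang II+PD123319, and here the groups did not overlap (0.30 ± 0.08, adjusted p = 0.497). Aurkc, an Aurora kinase best known from meiosis, was higher by 0.36 ± 0.09 and Akap8l, a nuclear A-kinase anchoring protein, by 0.29 ± 0.08. Ttc13 (0.30 ± 0.08) and the nucleotide excision repair endonuclease Ercc5 (0.26 ± 0.07, fold 1.19, short of the limit) closed the list of the 10 bright genes with the lowest p. Of these 10, 3 were lower and 7 higher.

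The largest fold changes among named genes belonged to dim ones. Among genes with a gene symbol (probe IDs, RGD, LOC and other provisional names left out) and signal well above background on each of the 8 arrays, with p under 0.05 and the same direction in every pair, the highest was Acrbp, an acrosomal protein: it read 3.47, 3.88, 3.92 and 3.95 in Ang II and 4.31, 4.78, 3.96 and 5.05 in Ang II+PD123319 (log2 fold change 0.72 ± 0.16, adjusted p = 0.419). The groups did not overlap, but on the third slide the values were nearly level. Thpo (thrombopoietin) followed at 0.67, Dhrsx at 0.65, Vof16 at 0.63, Bmyc at 0.61, Efcab2 at 0.59, Olr1593 at 0.56, Hoxb5 at 0.55, the collagen receptor kinase Ddr1 at 0.54 and Col1a1 at 0.54. Thpo rested on the fourth slide, where it read 5.53 against 3.72, and Bmyc on the first, where it read 4.21 against 2.31. Col1a1, the main chain of type I collagen, had 2 probes that disagreed: 0.63 ± 0.16 for the dimmer and 0.07 ± 0.17 for the brighter. Its gene value of 0.54 is not the mean of these. Probes were averaged on each array with blanks skipped, and the part of such blanks was not tested.

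At the other end, by the same rule, Olr1714 was lowest at -0.72, then Atm, the DNA damage kinase, at -0.62 and Actr3b at -0.60. Actr3b, a neural paralog of the ARP3 subunit that nucleates branched actin, read 5.17, 5.41, 5.07 and 5.20 in Ang II and 4.69, 4.54, 4.99 and 4.23 in Ang II+PD123319 (-0.60 ± 0.15, adjusted p = 0.48), without overlap of the groups. Olr1381 (-0.59), the carbonic anhydrase Car1 (-0.57), Actn3 (-0.55), the spliceosomal protein Snrpf (-0.50 ± 0.09, adjusted p = 0.383), Zic5 (-0.49), Epb4.1l5 (-0.49) and Olr80 (-0.45) completed the 10. All of these lay below the median signal, and normexp correction brought Acrbp to 0.19, Actr3b to -0.29 and Snrpf to -0.12.

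The gene with the lowest p of all, Abra, also fell among dim genes. Abra encodes an actin-binding activator of SRF signalling, and read 3.49, 4.26, 3.88 and 3.67 in Ang II and 2.93, 3.85, 3.22 and 2.92 in Ang II+PD123319. It was lower in 4 of 4 pairs (log2 fold change -0.60 ± 0.09, adjusted p = 0.383), but well above background on only 2 of the 4 Ang II+PD123319 arrays, and after normexp correction the difference was -0.06. The inflammasome sensor Nlrp3 read 3.26, 3.59, 3.81 and 4.03 in Ang II and 2.62, 2.84, 3.24 and 3.01 in Ang II+PD123319 (-0.75 ± 0.16, adjusted p = 0.419), above background on 1 of the latter arrays. The proton-gated channel Accn1 (now Asic2) read 3.64, 4.06, 4.12 and 4.24 against 3.12, 3.4, 3.36 and 3.56 (-0.65 ± 0.11, adjusted p = 0.383), above background on 3. The groups did not overlap for Nlrp3 and Accn1, yet normexp correction brought these differences to -0.10 and -0.07.

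Abra, Nlrp3 and Accn1 came from lists that the study drew from these same samples, which are not independent evidence of direction. Of its genes common to the Ang II and the PD123319 comparisons at 6 h, 19 were tested. Past both limits 8 were higher and 6 lower, beside 2.57% and 1.22% of all genes, and 17 had an unadjusted p under 0.05. RGD1562406 was highest (0.63 ± 0.13), followed by RGD1563574 (0.36), the carbonic anhydrase-related protein Car11 (0.35 ± 0.07, adjusted p = 0.419), the anion exchanger Slc26a6 (0.35), the peptidase Klk11 (0.34), Pgpep1 (0.33) and Pyroxd2 (0.32). Vamp1 gave 0.23 and Ccdc6 gave -0.35, neither past both limits. Of its 5 tested genes common to 3 h and 6 h, Ctgf and Hbegf were lower and the heparin-binding growth factor midkine (Mdk) was higher (0.36 ± 0.15, adjusted p = 0.737). Its 10 top-ranked network hubs at 6 h were all below 0, with a median of -0.21, but 0 were past both limits. Of these hubs Slc7a5, Ung, Pdpn, Stk3 and Mdfic were DE in the study, whose stated rule was a t-test p under 0.05. The others were co-expressed genes added to its network. Among its DE hubs, Ung and Pdpn had an unadjusted p under 0.05 here by limma. Slc7a5, the large neutral amino acid transporter, gave -0.35 ± 0.45, Pdpn -0.26, the uracil-DNA glycosylase Ung -0.26 (adjusted p = 0.657), Tpm4 -0.24 and S100a10 -0.02. Of the genes it took to PCR, 11 were tested. Apart from Nlrp3, Ctgf and Hbegf, which were called lower, these included Map2k4 (-0.15), Prkca (-0.12), Bcar1 (-0.11), Gapdh (-0.03), Vegfa (0.01), Lamb1 (0.02) and Aqp2 (0.05), none past both limits.

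Pathway lists around the receptors had small negative medians and few calls. Over all genes 2.57% were called higher and 1.22% lower, and in single pairs 8077 to 8579 of the 16444 genes were below 0. Members of a list were read on the same 8 arrays, so counts below 0 are not independent votes. Of 35 tested genes of the G protein and second messenger relay 0 were past both limits, 26 were below 0 and the median was -0.07. Gnaq, the alpha subunit that couples AT1 to phospholipase C, gave -0.18 (adjusted p = 0.737), and the soluble guanylate cyclase subunits Gucy1b3 and Gucy1a3 gave -0.30 (adjusted p = 0.737) and -0.26. Of 42 genes of the MAP kinase cascade 1 was past both limits, Map3k12 (DLK, an upstream kinase of JNK). It read 7.46, 7.29, 7.16 and 7.16 in Ang II and 7.67, 7.60, 7.47 and 7.59 in Ang II+PD123319, without overlap (0.31 ± 0.07, adjusted p = 0.419). Of 21 immediate early genes 0 were called, with Fosl1 at -0.15 (adjusted p = 0.75), Srf at -0.16 (adjusted p = 0.737), Egr1 at -0.14 and Jun at 0.07. Of 18 genes of ERK feedback only Dusp5 was called. Dusp10 gave -0.30 (adjusted p = 0.763), Spry2 -0.25 and Dusp6 -0.12. Of 10 EGF receptor family genes and ligands only Hbegf was called.

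Cytoskeletal lists leaned the same way. Of 24 tested YAP and TEAD targets and Hippo kinases, Ctgf and Thbs1 were called lower (8.33% of the list, beside 1.22% of all genes), 18 were below 0 and the median was -0.10. Lats2, a Hippo kinase and itself a YAP target, gave -0.27 (adjusted p = 0.737), Tead1 gave -0.15 (adjusted p = 0.783), and Yap1 went the other way (0.19, adjusted p = 0.717), all short of the fold limits. Of 33 SRF targets and actin genes 28 were below 0 and the median was -0.07, with Abra called lower. Vcl gave -0.25 (adjusted p = 0.723), Myl9 -0.18 (adjusted p = 0.693) and Fhl2 -0.20 (adjusted p = 0.737). In the SRF list 12 members (36.4%) were lower in all 4 pairs, beside 11.3% of all genes tested. Of the 10 genes of the Arp2/3 complex, Actr3b was called lower and 9 were below 0. Of 38 integrin and focal adhesion genes Itga9 (0.30) and Itgb4 (0.27) were called higher, beside 2.57% of all genes, while the list's median was -0.07. Among matrix genes Col1a1, whose probes disagreed, was called higher and the stromelysin Mmp10 (-0.36) lower.

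The DNA replication and E2F list stood lowest among the larger lists. Of its 47 tested genes 44 were below 0 and the median was -0.12, beside -0.004 over all genes. In all 4 pairs 20 (42.6%) were lower, beside 11.3% of all genes tested. Only Orc6l (now Orc6), a subunit of the origin recognition complex, was past both limits (-0.33 ± 0.15, adjusted p = 0.763), beside 1.22% of all genes called lower. Ung (-0.26) and cyclin D2 (Ccnd2, -0.25, adjusted p = 0.611) had an unadjusted p under 0.05 without reaching the fold limit. Ccne2 gave -0.28, Cdt1 -0.22, Mcm6 -0.19, E2f1 -0.17 and Pcna -0.10. The list's median difference was -0.01 in replicate 1, -0.15 in replicate 2, -0.12 in replicate 3 and -0.21 in replicate 4, nearest 0 in replicate 1 and farthest on the fourth slide, whose Ang II+PD123319 array was the dimmer one noted above. The part of that array was not tested. Across the alternative settings the median stayed between -0.17 and -0.07. The 48 tested genes of mitosis showed no such lean, with a median of 0.01 and 0 calls.

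Genes of amino acid supply showed a similar picture. Of 21 aminoacyl-tRNA synthetases 20 were below 0 with a median of -0.10 and 0 calls (Nars -0.36, Tars -0.27, Yars -0.26), and their pair medians were 0.004, -0.14, -0.08 and -0.18. The 27 tested ATF4 targets and amino acid transporters had a median of -0.09. ER chaperones and the unfolded protein response (27 genes, -0.06) and heat shock proteins (25 genes, -0.06) also held 0 calls. The 76 cytosolic ribosomal proteins had a median of 0.03, which turned to -0.02 under an alternative setting, and 1 call, the retrogene Rpl10l. The 77 genes of oxidative phosphorylation had a median of 0.01 and 0 calls.

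**Figure D3:**
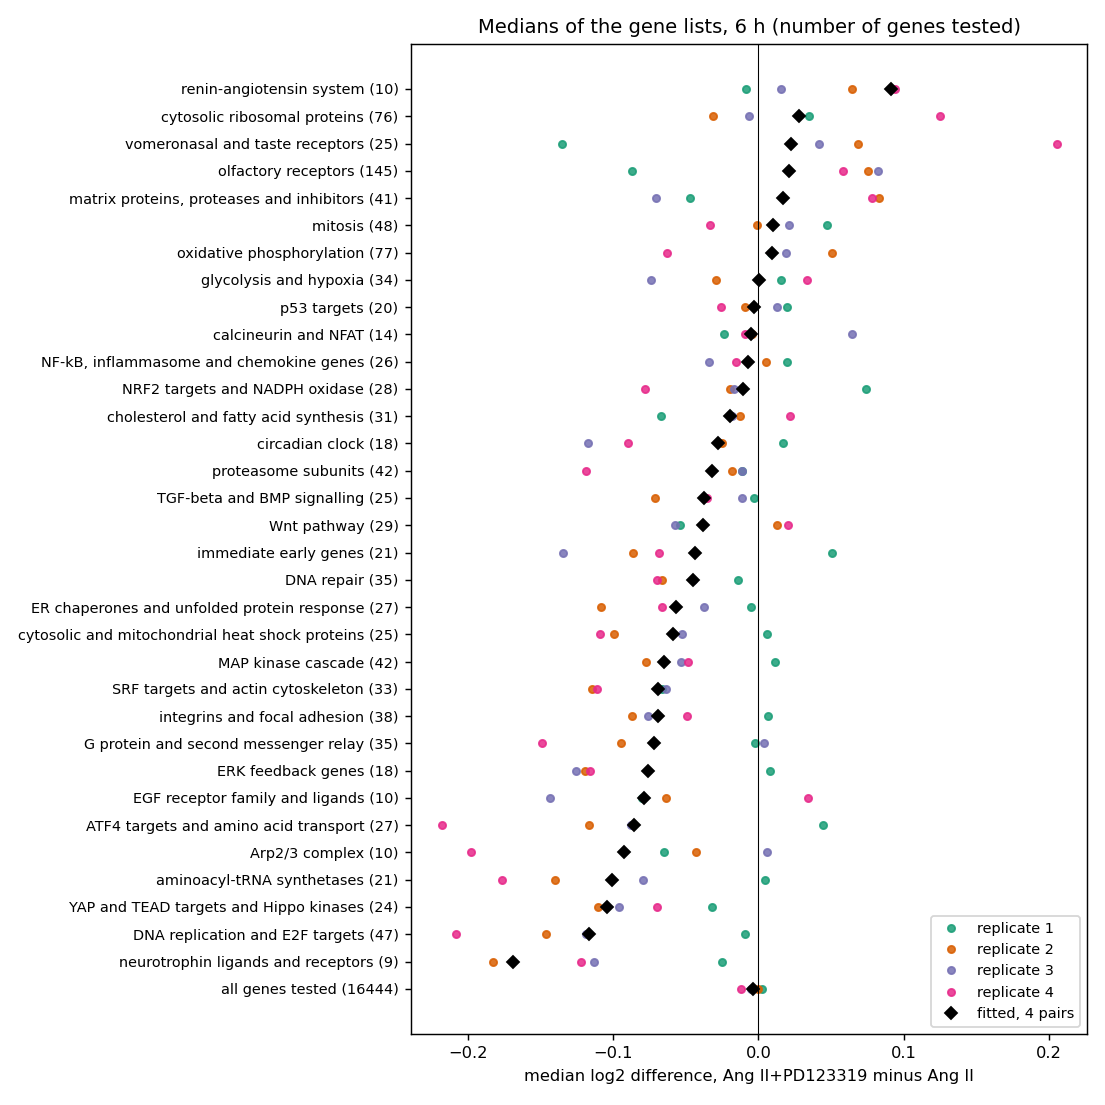
Median log2 difference of Ang II+PD123319 minus Ang II (x) for each gene list (y, number of genes tested in brackets), with a coloured point for each replicate pair and a black diamond for the fitted value. Replication genes lie at -0.12 and all genes at -0.004, and for the replication genes replicate 1 sits near 0 while the other pairs lie to the left.

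The remaining lists held few calls, to be set beside 2.57% higher and 1.22% lower over all genes. Of 29 Wnt genes the receptor Lrp5 was higher (0.47 ± 0.20, adjusted p = 0.738) and the secreted inhibitor Sfrp1 lower (-1.41 ± 0.62, adjusted p = 0.763). Sfrp1 read 6.05, 4.18, 4.52 and 4.31 in Ang II and 3.1, 3.96, 3.88 and 2.49 in Ang II+PD123319, without overlap of the groups and with the widest gaps in replicates 1 and 4; it was well above background on 3 of the 4 Ang II+PD123319 arrays, and normexp correction brought it to -0.43. Of 18 clock genes Rora (-0.47) and Nr1d2 (-0.44) were called lower and Per1 higher (0.32), which is 11.1% and 5.56% of the list beside 1.22% and 2.57% of all genes. These 3 genes were dim, Rora was well above background on only 1 of the 4 Ang II+PD123319 arrays, and after normexp correction Rora gave -0.08, Nr1d2 -0.15 and Per1 0.13, short of the limits. Sesn1 was the only one of 20 p53 targets (-0.42), Atm the only one of 35 DNA repair genes, Slc16a3 the only one of 34 glycolysis and hypoxia genes (-0.33), Psmb11 the only one of 42 proteasome genes (0.41) and Nlrp3 the only one of 26 genes of NF-kB and the inflammasome. No gene of TGF-beta and BMP signalling (25 tested), cholesterol synthesis (31), NRF2 and NADPH oxidase (28) or calcineurin and NFAT (14) was called. Olfactory receptors gave 12 higher and 4 lower of 145 tested (8.28% and 2.76%), beside 2.57% and 1.22% of all genes. Their median log2 signal was 4.33, and in the dimmest bin, which holds signals of that size, 5.84% of genes were higher and 3.79% lower. Of 25 vomeronasal and taste receptors Vom2r54 (-1.02) and Vom2r41 (-0.79) were called lower, and the former rested mostly on the fourth slide, at 1.34 against 3.49. Both were well above background on all 4 Ang II arrays, but Vom2r54 on 3 and Vom2r41 on 2 of the Ang II+PD123319 arrays, and normexp correction brought them to -0.17 and -0.03.

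The antagonists were compared directly at the same dose and time, as Ang II+PD123319 x Ang II+Los, which shares its Ang II+PD123319 arrays with the comparison above. Genes named for a difference from Ang II are therefore not independent here, and their values are descriptions. Of 16444 genes 779 (4.74%) were past both limits, 477 higher and 302 lower with PD123319, again with 0 at an adjusted p under 0.05 (lowest 0.235). Past both limits between the antagonists were Abra (-0.66 ± 0.09, adjusted p = 0.235), Accn1 (-0.52 ± 0.11, adjusted p = 0.278), Ikbke (0.49 ± 0.13, adjusted p = 0.389), Actr3b (-0.53 ± 0.15, adjusted p = 0.394), Dusp5 (-0.35, adjusted p = 0.498), Pias3 (0.31 ± 0.08, adjusted p = 0.382), Suv420h2 (0.32) and Hbegf (-0.36 ± 0.14, adjusted p = 0.546). Ctgf (-0.19 ± 0.13, adjusted p = 0.763), Crim1 (-0.12 ± 0.09, adjusted p = 0.798) and Thbs1 (-0.11 ± 0.11, adjusted p = 0.885) were not past the limits. The 95% interval of the difference ran from -0.47 to 0.08 for Ctgf, from -0.31 to 0.07 for Crim1 and from -0.36 to 0.14 for Thbs1, so that a lower or a level signal with PD123319 fits within each. The integrins Itga9 and Itgb4 were higher with PD123319 than with Losartan by 0.46 and 0.47. The p-values are adjusted over 16444 genes for this 1 pair of compounds.

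Beside untreated cells, Ang II+PD123319 x Control gave 2213 genes (13.5%) past both limits, 1162 higher and 1051 lower, and 227 genes with an adjusted p under 0.05. That count fell to 2 without replicate 2, to 1 without replicate 4, to 109 after normexp correction and to 0 with no replicate block, and rose to 689 without replicate 1 and to 843 without replicate 3. Abra was again first (-1.17 ± 0.09, adjusted p = 0.000626 by limma), and Crim1 (-0.60 ± 0.09, adjusted p = 0.025) and Ctgf (-0.65 ± 0.13, adjusted p = 0.0407) passed as well. Genes named for a difference from Ang II share their Ang II+PD123319 arrays with this comparison, so these values are descriptions. Abra was well above background on only 2 of the 4 Ang II+PD123319 arrays. Hbegf gave 0.02 ± 0.14, Suv420h2 gave 0.23 and Pias3 0.15. Mean log2 signals of Ctgf ran 12.25 ± 0.47 (SD over 4 arrays) in Control, 12.04 ± 0.67 in Ang II, 11.79 ± 0.74 in Ang II+Los and 11.60 ± 0.79 in Ang II+PD123319, which is also the order of the positions on each slide. In the same order Hbegf ran 8.21 ± 0.92, 8.66 ± 0.70, 8.59 ± 0.79 and 8.23 ± 0.91, higher in Ang II and Ang II+Los than in the other groups. The SDs hold the differences between slides, which the tests remove, and neighbours in each order lie within them.

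**Figure D4:**
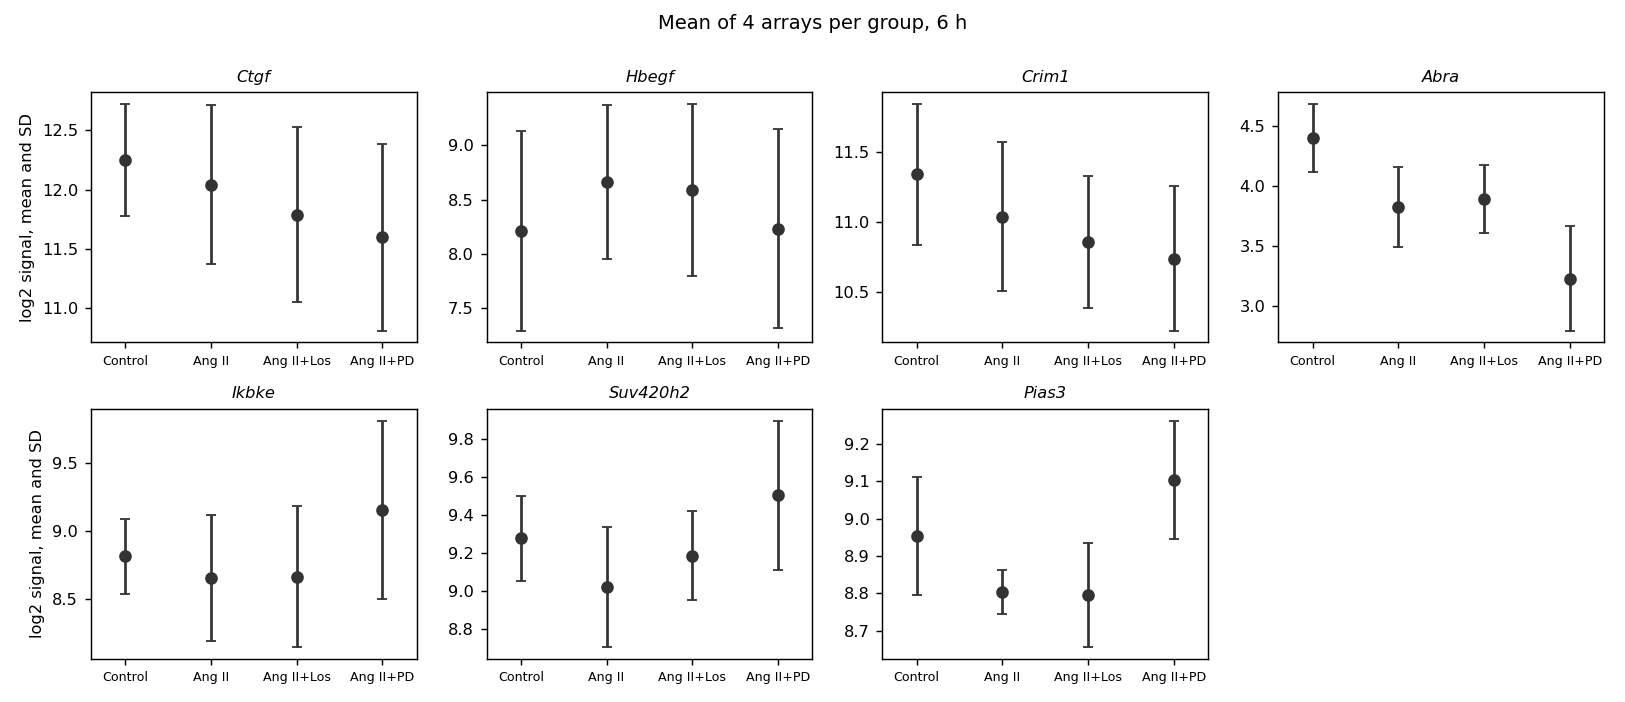
Mean log2 signal and SD of 4 arrays (y) of 7 genes in the 4 groups of 6 h (x). Ctgf and Crim1 step down from Control to Ang II+PD123319, Abra is lowest and Ikbke, Suv420h2 and Pias3 are highest in Ang II+PD123319, and the SD bars, which hold the slide differences, overlap for most groups.

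At 3 h the same contrast was measured on other arrays. Over the 13614 genes tested at both times, 360 (2.64%) were past both limits at 3 h, and 31 of the genes called at 6 h were among them, which is 9.31% of the 6 h list and 8.61% of the 3 h list. Of the 31, 28 had the same sign at both times. Ang II and Ang II+PD123319 arrays held the same slide positions at both times, so a position effect would be shared. The named genes among the 31 were Plcxd2, Ctgf and Hbegf, lower at both times, and Sox18, Lpo, Lce1d, Ccdc151, Kbtbd11, Nyx, Mdk, Best2 and Wbscr28, higher at both. Ctgf was -0.66 ± 0.17 at 3 h and -0.45 ± 0.13 at 6 h, and Hbegf was -0.59 ± 0.16 at 3 h and -0.43 ± 0.14 at 6 h. The difference between the times was 0.21 ± 0.21 for Ctgf and 0.16 ± 0.21 for Hbegf, neither with an unadjusted p under 0.05. Fosl1, an AP-1 subunit, gave -0.41 at 3 h and -0.15 at 6 h.

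**Figure D5:**
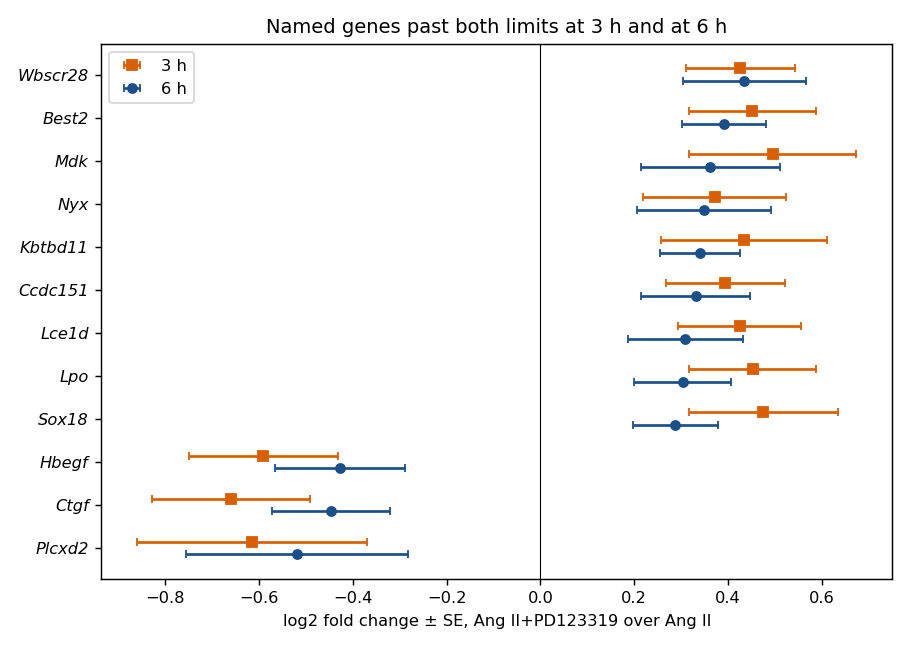
Log2 fold change of Ang II+PD123319 over Ang II with its SE (x) at 3 h (squares) and 6 h (circles) for the 12 genes with a symbol (y) that were past both limits at both times. Plcxd2, Ctgf and Hbegf lie below 0 and the other 9 above 0 at both times.

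Other genes were seen at 6 h and not at 3 h, but few of them had a difference between the times past the p limit. Over all genes 236 (1.73%) had an unadjusted p under 0.05 for the difference between the times, fewer than chance would give, and 0 passed adjustment (lowest adjusted p of 1). Among the 65 named genes tested at both times, 12 had an unadjusted p under 0.05. The largest differences of these were in the dim genes Olr80 (-0.83 ± 0.30, with 0.38 at 3 h), Car1 (-0.75 ± 0.30, with 0.18 at 3 h) and Acrbp (0.72 ± 0.27, with 0.004 at 3 h). Actr3b (-0.62 ± 0.21, with 0.02 at 3 h) and Ercc5 (0.36 ± 0.11, with -0.11 at 3 h) had the lowest p-values among them. Vof16 differed by more (0.86 ± 0.47) without passing the p limit. Suv420h2 gave 0.0004 at 3 h (difference 0.49 ± 0.25) and Ikbke -0.09 (difference 0.59 ± 0.28), the latter alone with an unadjusted p under 0.05. These genes were named for their values at 6 h, so the differences are descriptions. The scanner protocol also differed between the times and cannot be told apart from time.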

How the data were processed

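RNA of C6 cells was labelled with Cy3 and hybridized to 1-colour rat arrays. Per the file headers, the authors scanned them with Agilent Feature Extraction 9.5.3.1, whose processed signal intensity is background-subtracted, with probe coordinates of rn4. The deposited log2 values equalled the log2 of that intensity (561803 values compared, tolerance 1e-06) and were 38.2% blank. In the re-analysis, spots not positive and significant took the processed signal error of the scanner software in place of the signal. That step was made on the arrays of 3 h only. The re-analysis also left spots flagged as outliers blank at both times. Here the log2 intensity of each time was normalized by cyclic loess (3 iterations, span 0.7). A probe was kept if it had at most 2 gaps and some group read it well above background on each of its 4 arrays. Kept probes were averaged per gene on each array, with blanks skipped. The 16 arrays of 6 h were fitted with limma 3.58.1 in R 4.3.3, with the replicate number as a block where the methods used t-tests, and p-values were Benjamini-Hochberg adjusted over all genes. Same-numbered arrays share a slide per the file headers, and their deviations correlated at 0.636 to 0.806. Scripts were tested on simulated data. The number of arrays limits the precision.

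Members, gene lists and tests were chosen with earlier results of these data known. Named genes were the 10 most positive and the 10 most negative differences of genes that had a symbol, p under 0.05, the same direction in 4 pairs and signal above background on 8 arrays; the 10 lowest p among genes at or above the median signal; the study's lists; and up to 4 called members of each other list. Of 2482 list entries, 29 were not matched and are not analysed here; some named genes are not reported here. Alternatives were no block, t-tests, other scalings, background correction, filters, single probes, the 8 arrays alone, the deposited values and leaving out each replicate. For the time difference, probes kept at both times were fitted over all 32 arrays with slides as blocks.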

Additional observations from a re-analysis of the deposited data

Results flagged for a closer look

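In 190 groups of 4 arrays examined, 15 held a value far from the other 3 (chance flags about 1 in 20 groups). Replicate 1 stood low for Acrbp in Ang II (3.47, nearest 3.88), for Itga9 in both groups (3.98 in Ang II and 4.81 in Ang II+PD123319), for Mmp10 in both groups (3.49 and 3.42), and for Mdfic (8.15) and Mdk (6.23) in Ang II+PD123319. Replicate 1 stood high for Bcar1 in Ang II (11.02) and for Olr80 in Ang II+PD123319 (6.03). In Ang II+PD123319, replicate 2 stood low for Olr1381 (3.45) and Rora (2.71), replicate 3 low for Pdpn (6.96) and high for Plcxd2 (4.58), and replicate 4 low for Slc7a5 (7.45). The Ang II+PD123319 array of replicate 4 had 888 outlier spots, against 334 to 370 on the other arrays of its group. No named gene differed between 6 h and 3 h at an adjusted p under 0.05, and 12 of the 65 tested did so at an unadjusted p.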

How the results depend on the processing

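Of the comparison's 423 higher and 201 lower genes, the counts became 57 and 56 with no replicate block, 175 and 111 by the methods' paired t-test, and 37 and 47 by the unpaired t-test. They became 828 and 87 with 75th-percentile scaling, 135 and 22 after normexp correction, 350 and 98 with the strict filter, 760 and 517 with no filter, and 299 and 96 from the deposited values, which test fewer genes. Leaving out 1 replicate gave 202 to 638 higher and 138 to 283 lower; the low ends came without replicate 4 and the high ends without replicate 1. Genes with an adjusted p under 0.05 numbered 0 under every setting except no filter, which gave 4 (Olr1179 and 3 features without a symbol, all dim and on at most 3 of the 8 arrays above background). Without the block, Ang II+PD123319 x Ang II+Los gave 153 genes, Ang II+PD123319 x Control 753 and the time difference 27. After normexp correction the first of these gave 110 and the second 985. Leaving out 1 replicate gave 584 to 1103 and 1456 to 3199 genes for these comparisons and 63 to 314 for the time difference, where without replicate 2 gave 152 and without replicate 4 gave 63. The cause of these changes was not tested. Of the 64 calls among the named genes, 47 were lost without the block and 52 after normexp correction. The named genes numbered 92 in all, called or not. A sign changed in 7 of them, all short of the limits to begin with: Ccdc6 gave 0.0941 with the strict filter and with 1 probe alone, S100a10 0.064 after normexp correction, Vegfa -0.00484 with quantile normalization and -0.0391 with 1 probe alone, and Stk3 0.0147 with 1 probe alone. Leaving out 1 replicate at a time, Enpp1 ran from -0.0383 to 0.0374, Lamb1 from -0.0532 to 0.097, Myo1c from -0.347 to 0.00965, S100a10 from -0.0518 to 0.034 and Vegfa from -0.0755 to 0.0685.

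Signal over background limits what can be read: most calls lie below the median signal, and their size depends on background correction. Position on the slide cannot be told apart from treatment here.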
